A study of Papio cynocephalus with 12 samples.

Results

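The protein genes of the small ribosomal subunit were followed here through 6 tables of read counts from baboon blood. The members were a given list of 32 human RefSeq accessions, 1 for each gene, and they were 32 of the 40915 accessions in the tables (33 of 41970 rows, since 1 gene had a second row that was summed with the first). The list fixed 1 accession for each gene, so rows of other transcript isoforms of the same genes were not used. The gene names came with the list, as the tables hold accessions only. The 12 samples were whole blood RNA of 12 yellow baboons (Papio cynocephalus), all adult males bred in a colony, 1 sample for each animal, all taken at baseline before any bacterial inoculation, so that there was no treated group. The tissue label is blood and the source label peripheral blood mononuclear cells, while the collection tubes (PAXgene) lyse whole blood. The RNA was depleted of globin transcripts before sequencing. Each animal's reads were mapped to the human reference by 6 methods, with the transcriptome as reference for Bowtie2 and Stampy and the genome as reference for Bowtie2-G and Stampy-G (the same aligners, which do not split a read across an intron) and for the splice-aware TopHat2 and GSNAP, of which TopHat2 first tries the annotated transcripts.

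The small subunit binds the messenger RNA, reads its codons and checks the pairing with transfer RNA. Its proteins clasp one ribosomal RNA that folds into a head and a body with a platform, and the mRNA runs through the neck between them. Ribosomal protein genes are among the most highly expressed genes of dividing and protein-making cells, their mRNAs share a pyrimidine tract at the start that couples translation to mTOR signalling, and in blood they are abundant in lymphocytes and in young red cells. Primate genomes carry many near-identical intronless copies of these genes. Counts of every member are therefore uncertain to the extent that such copies took or gave reads, and their part in the differences was not tested.

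The counts of a column summed to between 7249470 (lowest GSNAP column) and 18911340 (highest Stampy column). Animal 5 had the highest and animal 11 the lowest TMM scaling factor with TopHat2 (1.25 and 0.778), so results between animals are also given without them where they rest on them. Animals are separate individuals, and the 2 columns compared in a method comparison are the same reads mapped in different ways. The p-values between methods therefore concern a mapping difference, not a difference in expression. They do not measure its repeatability over animals alone. The test also takes the counting error of both columns as if they were independent, so a small difference seen in every animal can fail it.

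Of the 32 members, 26 had at least 5 counts in every animal with Bowtie2, Stampy and TopHat2. Bowtie2-G gave 25 members in every animal, Stampy-G 25 or 26 and GSNAP 24. RPS3 (NM_001005; uS3, at the mRNA entry), RPS10 (NM_001014; eS10), RPS14 (NM_005617; uS11, on the platform) and RPS24 (NM_001026; eS24) were at 0 in every column of every table, which allows up to 3 counts in each. That allowance covers counting error only. The zeros belong to the listed accessions as counted here, since rows of other isoforms were not used. They do not show that the mRNA of these genes was scarce, which was not tested. RPS27A (NM_002954), made as a fusion of ubiquitin with eS31, stayed between 0 and 4 counts. Taken over all tables, 6 members (18.8%) stayed under 5 counts in every column, against 49.3% of the 33934 accessions that begin with NM, and 15.6% were at 0 everywhere against 35.2%. These 6 failed the filter on low counts in every comparison. The plot of counts by gene shows 23 of the other 26.

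**Figure D1:**
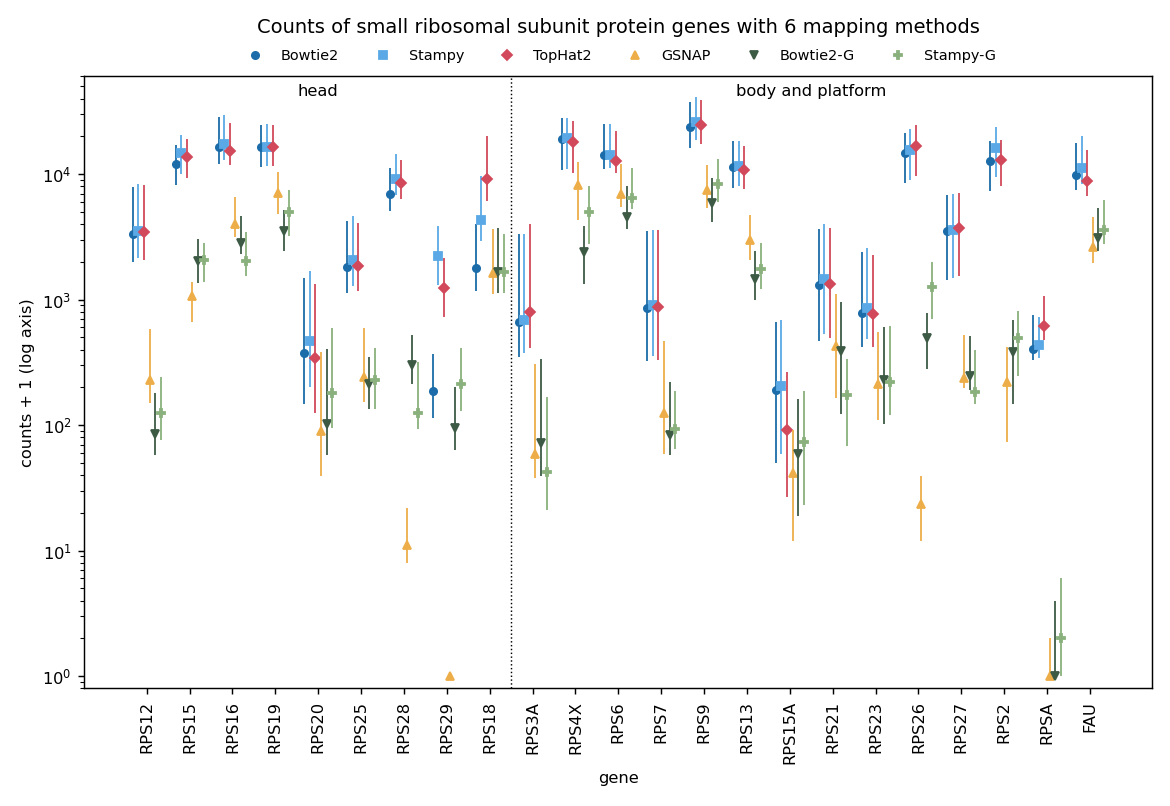
Counts plus 1 (log axis) of 23 of the 26 members with counts, by gene and mapping method, with the median of 12 animals as a symbol and the lowest to highest animal as a line, split into head proteins and body and platform proteins. Bowtie2, Stampy and TopHat2 lie together for most genes and above the other methods, RPS29 is at 0 with GSNAP, and RPSA has between 0 and 5 counts with Bowtie2-G, Stampy-G and GSNAP.

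Summed over the 32 genes, small subunit proteins took 1.79% ± 0.460 (SD, n = 12) of the counts of a TopHat2 column, 1.69% ± 0.435 with Bowtie2 and 1.54% ± 0.386 with Stampy. The share was 0.827% ± 0.215 with GSNAP, 0.437% ± 0.117 with Bowtie2-G and 0.404% ± 0.103 with Stampy-G. The share was lowest with the unspliced genome mappings in each animal. Within an animal, the summed count with Bowtie2 was 4.70 ± 0.161 (SD, n = 12) times that with Bowtie2-G, while the column totals differed by a factor of 1.21 ± 0.0312. Stampy gave 4.26 ± 0.144 times the Stampy-G count, TopHat2 4.97 ± 0.140 times the Bowtie2-G count and 3.56 ± 0.101 times the GSNAP count, each in 12 of 12 animals. GSNAP gave 1.39 ± 0.0199 times the Bowtie2-G count although its column totals were 0.736 ± 0.0093 of those with Bowtie2-G. Bowtie2 and TopHat2 were near each other, with a ratio of 0.947 ± 0.00973 that was below 1 in 12 of 12 animals.

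The share differed between animals by about the same factor in every table, from 2.31 times between lowest and highest with TopHat2 to 2.53 times with Bowtie2-G. Animal 11 was lowest in all 6 tables, with 1.09% with TopHat2 and 0.249% with Bowtie2-G, and animal 2 was highest, with 2.53% and 0.630%. The order of the animals was the same in all 6 tables except that animals 3 and 9 and animals 1 and 8 changed places. The lowest place depended on the denominator. Without the 10 non-member accessions of the highest mean count, animal 11 rose to 1.71% with TopHat2 and animal 4 was lowest at 1.41%, with animal 2 still highest at 3.00%. These are shares of bulk blood RNA, in which fewer cells of a type and less RNA for each cell cannot be told apart.

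**Figure D2:**
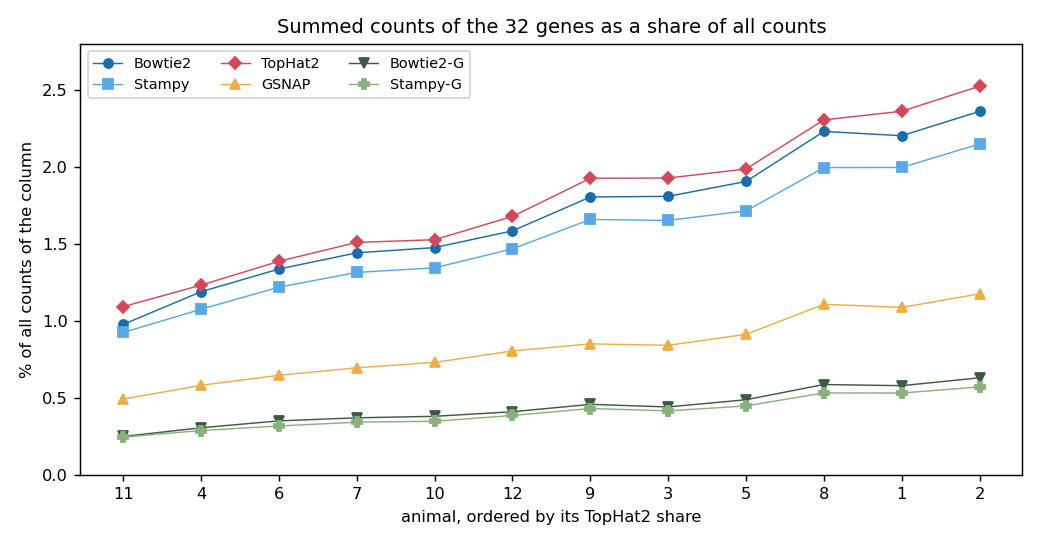
Summed counts of the 32 genes as a percentage of all counts of the column, for 12 animals ordered by their TopHat2 share, with 1 line for each mapping method. The lines run nearly parallel from animal 11 (1.09% with TopHat2) to animal 2 (2.53%), with Bowtie2-G and Stampy-G lowest in every animal.

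The first question was what the choice of reference does to the counts of these genes when the aligner is kept. With Bowtie2, all 26 members tested were counted higher on the transcriptome than on the genome, where 70.3% of the 11327 accessions tested were called higher and 7.22% lower, and 24 of the 26 were higher by at least 2-fold against 23.1% of all (edgeR's quasi-likelihood test with Benjamini-Hochberg adjustment). None was lower, also at an unadjusted p under 0.05 and with DESeq2 at the same library sizes. RPSA, which is among the 26 and the 24, passed the filter only through its transcriptome counts and so had to differ. The median difference of the members was 2.44 on the log2 scale, against 0.22 for all accessions. These calls are on the scale of reads assigned, with 1 library size for both columns of an animal. When each column was scaled to its own total with TMM, the median of all accessions moved to -0.11 and that of the members to 2.11, with 25 members higher and 1 lower. The head proteins had a median of 2.37 (10 genes tested) and the body and platform proteins of 2.63 (16 genes tested).

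Among the head proteins, RPS12 (NM_001016), which forms part of the beak as eS12, had 1981, 3339 and 7955 counts (lowest, median and highest of 12 animals) with Bowtie2. With Bowtie2-G it had 57, 84.5 and 180 counts. The ranges lie far apart, with every animal lower on the genome, and the fitted difference was 5.36 ± 0.050 (log2 ± SE), or 41.1-fold (edgeR, adjusted p = 2.81e-18). RPS28 (NM_001031), the eS28 protein at the mRNA exit, had 5089, 6933.5 and 11149 counts with Bowtie2 against 212, 302 and 517 with Bowtie2-G, a difference of 4.52 ± 0.023. At the other end stood RPS18 (NM_022551), the uS13 protein of the head that touches the large subunit. Its 1180, 1783 and 4040 counts with Bowtie2 and 1135, 1664.5 and 3711 with Bowtie2-G overlapped almost wholly, and the difference of 0.080 ± 0.013 was in the same direction in 11 of 12 animals (edgeR, adjusted p = 7.10e-05) and turned to lower when columns were scaled to their own totals. The zinc-binding uS14 protein RPS29 (NM_001032) differed by 0.99 ± 0.040. The head genes RPS15, RPS16, RPS19, RPS20 and RPS25 had differences between 1.83 (RPS20) and 3.31 (RPS25).

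Of the body and platform proteins, RPSA (NM_002295), uS2, also known as the laminin receptor, was the extreme. It had 331, 406.5 and 757 counts with Bowtie2 and between 0 and 3 with Bowtie2-G, where its 12 columns summed to 5 counts against 5462 with Bowtie2. It passed the filter only through its counts on the transcriptome, so that it had to differ. RPS2 (NM_002952), the uS5 protein at the mRNA entry, had 7357, 12741.5 and 18274 counts with Bowtie2 and 146, 379.5 and 690 with Bowtie2-G. The lowest Bowtie2 animal lay far above the highest Bowtie2-G animal, and the difference was 5.22 ± 0.092, or 37.2-fold (edgeR, adjusted p = 1.85e-15). RPS26 (NM_001029), eS26 at the mRNA exit, followed with 4.88 ± 0.016. Small differences in the body were those of RPS6 (eS6, the substrate of S6 kinase; 1.57 ± 0.017) and FAU (NM_001997; 1.67 ± 0.012), a fusion of a ubiquitin-like protein with eS30. FAU had 7414, 9765 and 17710 counts with Bowtie2 and 2449, 3087.5 and 5376 with Bowtie2-G, with no overlap between the ranges. The body genes RPS3A, RPS4X, RPS7, RPS9, RPS13, RPS15A, RPS21, RPS23 and RPS27 lay between 1.76 (RPS15A) and 3.79 (RPS27).

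The same contrast with Stampy again had all 26 members tested higher on the transcriptome, against 64.7% higher and 9.06% lower of 13328 accessions, and 25 were higher by at least 2-fold against 25.7% of all. The median was 2.77 for the members and 0.19 for all accessions, and 2.49 and -0.084 with TMM on own totals. All 26 estimates were above 0, so none was lower at an unadjusted p under 0.05 or with DESeq2. RPS28 had 6779, 9220 and 14489 counts with Stampy and 92, 123.5 and 317 with Stampy-G, a difference of 5.94 ± 0.10 (edgeR, adjusted p = 3.81e-15). RPS2 differed by 5.07 ± 0.052, with 9556, 16020.5 and 23599 counts on the transcriptome and 247, 490 and 807 on the genome. For both genes every transcriptome count lay above every genome count. RPSA had 339, 437 and 729 counts with Stampy and between 0 and 5 with Stampy-G, and had to differ for the same reason as above. RPS29 and RPS18, which differed least with Bowtie2, differed by 3.36 ± 0.014 and 1.40 ± 0.018 with Stampy, whereas RPS6 stood at 1.12 ± 0.014 and FAU at 1.64 ± 0.011. The 2 contrasts have no column in common but come from the same reads, and the difference between them was not tested.

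TopHat2 was run with gene annotation. It places reads on the annotated transcripts first, with Bowtie2 inside it, then maps the reads that are left to the genome and last tries to split them across introns, so this contrast with Bowtie2-G is not one of splicing alone. All 26 members tested were higher with TopHat2, against 70.8% higher and 8.15% lower of 11115 accessions, and 25 were higher by at least 2-fold against 19.6% of all. The median difference was 2.59 for the members and 0.20 for all accessions, moving to 2.29 and -0.099 with TMM on own totals, where all 26 were still called higher. None was lower at any p, as every estimate was above 0. RPS12 had 2056, 3431.5 and 8208 counts with TopHat2, a difference from Bowtie2-G of 5.41 ± 0.049, and RPS2 had 8044, 12919.5 and 18724 counts, a difference of 5.28 ± 0.092 (edgeR, adjusted p = 5.01e-19 and 5.03e-16). RPSA had 475, 621 and 1064 counts with TopHat2 and between 0 and 3 with Bowtie2-G, so it passed the filter only through TopHat2 and had to differ. FAU, with 6748, 8811.5 and 15486 counts, differed by 1.50 ± 0.0076. The member with the smallest difference was RPS15A (NM_001019; uS8), whose 26, 91 and 265 counts with TopHat2 overlapped the 18, 57.5 and 162 counts with Bowtie2-G and which still was higher in 12 of 12 animals by 0.62 ± 0.035 (edgeR, adjusted p = 3.06e-10).

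To set the members beside other well-counted accessions, the summed count with each method was taken as a percentage of the TopHat2 count, over the 6697 accessions with a mean of at least 100 counts with TopHat2, 26 of which were members. The median was 16.7% for the members and 87.1% for all with Bowtie2-G, 16.8% and 108% with Stampy-G, and 25.7% and 62.0% with GSNAP. All 26 members lay below the median of all accessions with each of these methods. Members and all accessions alike were selected by their TopHat2 count, which is also the denominator. The selection thus lets in accessions with hardly any counts with a compared method, such as RPSA with Bowtie2-G, and leaves out the reverse. The members' median was undercut by 7.03% of all accessions with Bowtie2-G, by 5.97% with Stampy-G and by 12.1% with GSNAP. With Bowtie2 and Stampy on the transcriptome the medians were 97.2% and 108% for the members and 99.6% and 121% for all. Taken within each animal, these percentages varied little over the 12 animals for most members. FAU kept 35.3% ± 0.72 (mean ± SD, n = 12) with Bowtie2-G, RPS9 (NM_001013; uS4, at the mRNA entry) 24.2% ± 0.53 and RPS19 (NM_001022; eS19, the gene first linked to Diamond-Blackfan anaemia) 21.6% ± 0.44, each with an SD smaller than the distance to the next of these genes. RPS20 with Stampy-G varied more, at 53.5% ± 14.

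**Figure D3:**
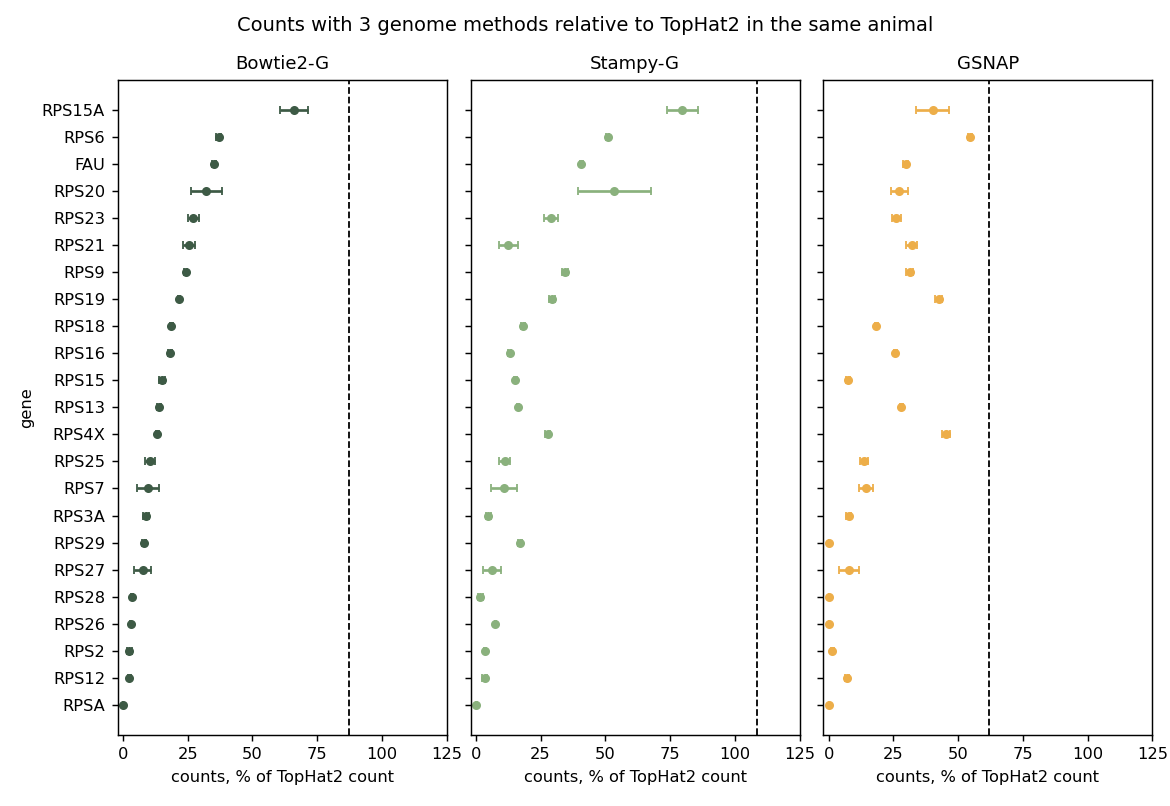
Counts with Bowtie2-G, Stampy-G and GSNAP as a percentage of the TopHat2 count in the same animal for 23 of the 26 members, with the mean as a point, the SD of 12 animals as a bar, and the median of all 6697 accessions with a mean of at least 100 TopHat2 counts as a dashed line. Every mean lies left of the dashed line, and the order runs from RPS15A (66.1% with Bowtie2-G) down to RPSA (0.0584%).

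GSNAP, the other spliced method, gave fewer counts than TopHat2 for most accessions (93.2% of 10711 were called higher with TopHat2 and 3.25% lower). All 26 members tested were higher with TopHat2, which is near that background, but 24 were higher by at least 2-fold against 33.1% of all. The median difference was 1.96 for the members and 0.72 for all accessions, and 1.22 and -0.025 with TMM on own totals. None was lower at any p. RPS29 was at 0 in every GSNAP column against 728, 1233.5 and 2158 counts with TopHat2, at least 5275-fold higher when 3 counts are allowed over the 12 GSNAP columns. RPSA summed to 3 counts with GSNAP and 7963 with TopHat2, a ratio of 2654 with an exact 95% interval for counting error of 908 to 12874. RPS28 was also close to lost, with 7, 10 and 21 counts against 6376, 8539.5 and 12976 with TopHat2 (9.49 ± 0.021). RPS29, RPSA and RPS28 passed the filter only through TopHat2, so all of them had to differ, and all are among the 26 and the 24. RPS26 was close to lost as well, with 11, 22.5 and 38 counts against 9677, 16767.5 and 24579 (9.38 ± 0.030). In contrast RPS6, with 5516, 6883.5 and 12018 counts against 10252, 12816.5 and 22204, differed by 0.87 ± 0.0054, and its ranges overlapped. FAU differed by 1.75 ± 0.011. The median was 2.68 for the head and 1.79 for the body and platform, and neither it nor the median of all members changes when RPS29 is placed at its bound.

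GSNAP and Bowtie2-G divided the members. GSNAP called 13 of 25 higher and 9 lower, whereas 4.87% of 9609 accessions were higher and 85.3% lower, and 19 higher against 6 lower with TMM on own totals. By at least 2-fold, 4 members were higher (0.708% of all) and 4 lower (10.3% of all). The median difference of the members was 0.075 and that of all accessions -0.42, and 0.52 and 0.022 with TMM on own totals. RPSA failed the filter here and between Stampy-G and Bowtie2-G, as did the 6 genes under 5 counts. The gene with the largest gain was RPS4X (NM_001007), the X-linked eS4 protein, with 4350, 8195.5 and 12557 counts with GSNAP against 1343, 2390.5 and 3877 with Bowtie2-G, ranges that did not overlap (1.77 ± 0.011, edgeR, adjusted p = 8.24e-22). RPS12 gained 1.59 ± 0.055. Lower with GSNAP were RPS29 (0 against 62, 94 and 200, at least 429.7-fold lower on the same floor), RPS28 (-4.69 ± 0.052) and RPS26 (-4.31 ± 0.058), each in 12 of 12 animals. RPS29 and RPS28 (7 to 21 counts with GSNAP) passed the filter only through Bowtie2-G, so both had to differ. Both are among the 9 lower and the 4 lower by at least 2-fold. RPS18, RPS23 (uS12, at the decoding centre) and RPS27 did not pass the test, with -0.024, -0.070 and 0.0099 (edgeR, adjusted p = 0.0911, 0.0584 and 0.789). FAU was lower, at -0.25 ± 0.015 in 12 of 12 animals (edgeR, adjusted p = 1.32e-10), but higher by 0.20 with TMM on own totals.

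Stampy-G gave more counts than Bowtie2-G for most accessions, and the members gained less than that. Of 25 members tested 15 were called higher and 7 lower, against 89.7% higher and 1.86% lower of 10717 accessions, and 6 higher against 15 lower with TMM on own totals. The median difference was 0.22 for the members and 0.42 for all, and -0.23 and -0.034 with TMM on own totals. RPS26 had 703, 1268.5 and 1981 counts with Stampy-G against 280, 494 and 787 with Bowtie2-G, ranges that overlapped slightly, and was higher in 12 of 12 animals by 1.34 ± 0.017 (edgeR, adjusted p = 9.09e-19). RPS29 and RPS4X followed with 1.08 ± 0.027 and 1.06 ± 0.0078. The opposite direction was seen for RPS21 (NM_001024), eS21, with 67, 174 and 334 against 122, 386.5 and 952 counts (-1.14 ± 0.067, edgeR, adjusted p = 1.43e-10), for RPS3A (NM_001006), eS1 of the platform (-0.93 ± 0.043), and for RPS16 (NM_001020), uS9, whose tail reaches the transfer RNA (-0.47 ± 0.022). Each of these was lower in 12 of 12 animals. RPS7, RPS15 and RPS23 did not pass the test (edgeR, adjusted p = 0.124, 0.757 and 0.0943). FAU was higher by 0.21 ± 0.0068, but lower, at -0.25 with TMM on own totals.

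On the transcriptome the members' median difference between the aligners was smaller than on the genome with a shared library size (0.11 against 0.22). That of all accessions was similar (0.38 against 0.42). With TMM on own totals the members' medians were -0.31 and -0.23, so the order by size depended on the scaling. With Stampy, 25 of 26 members were called higher than with Bowtie2 and none lower, against 82.6% higher and 3.36% lower of 12999 accessions, but with TMM on own totals 2 were higher and 24 lower. All 26 estimates were above 0, so none was lower at an unadjusted p under 0.05, and DESeq2 at the same library sizes also had none lower. RPS3A did not pass the test, with 0.035 ± 0.0081 (edgeR, adjusted p = 0.106), although it was higher with Stampy in every animal. RPSA, among the 25 called, was not higher in every animal (in animal 2, 729 counts with Stampy against 757 with Bowtie2). The median gain of the members was 0.11, and that of all accessions 0.38. RPS29 stood out with 1306, 2220.5 and 3866 counts with Stampy against 114, 184.5 and 366 with Bowtie2, ranges far from overlap (3.45 ± 0.024, or 10.9-fold, edgeR, adjusted p = 3.94e-19). RPS18 had 2937, 4303 and 9610 counts against 1180, 1783 and 4040 (1.27 ± 0.010), and both genes kept their direction under every scaling tried. RPS28 came next with 0.39 ± 0.0082, which fell just below 0 with TMM on own totals, and FAU gained 0.18 ± 0.0032, which also turned to lower there.

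Bowtie2 on the transcriptome and TopHat2, which also starts from the transcriptome, gave nearly the same counts for most members. Bowtie2 was higher for 9 of 26 and lower for 15, against 35.3% higher and 28.5% lower of 11606 accessions, and for 4 and 18 with DESeq2's own size factors. RPS7 and RPS25 did not pass the test (edgeR, adjusted p = 0.156 and 0.662), although RPS7 was lower with Bowtie2 in every animal. The median difference was -0.041 for the members and 0.0079 for all. RPS18 had 1180, 1783 and 4040 counts with Bowtie2 and 6150, 9084 and 20228 with TopHat2. Every Bowtie2 count was below every TopHat2 count, at -2.34 ± 0.0089, or 5.07-fold (edgeR, adjusted p = 1.37e-22), and the counts of RPS18 with Bowtie2-G, Stampy-G and GSNAP were like those with Bowtie2 (medians of 1664.5, 1669.5 and 1640.5). RPS29 was lower with Bowtie2, at -2.62 ± 0.024, and RPSA at -0.54 ± 0.012. In the other direction RPS15A had 49, 189.5 and 664 counts with Bowtie2 against 26, 91 and 265 with TopHat2 and was higher in 12 of 12 animals by 1.14 ± 0.050, with overlapping ranges. FAU and RPS20 (NM_001023), uS10 of the head, were next with 0.16 ± 0.0095 and 0.14 ± 0.0095.

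Between animals, the typical member spread more than the typical accession. Levels were taken as log2 CPM (counts scaled to a common library size) with TMM factors and a prior count of 0.5, and compared only within a gene. With TopHat2 the median SD over 12 animals was 0.43 for the 26 members with at least 5 counts in every animal. It was 0.32 for the 9732 accessions that passed filterByExpr, so the 2 sets were filtered in different ways. In the other tables the members' median lay between 0.42 (Stampy-G) and 0.44 (GSNAP). Without TMM factors the medians with TopHat2 were 0.45 and 0.37. Most members moved together from animal to animal. With TopHat2, animals 1 and 2 were above a gene's own mean for 26 of 26 members and animal 8 for 25, with median deviations of 0.48, 0.51 and 0.53. Animal 4 was above the mean for none (-0.64), animal 7 for 1 (-0.36) and animal 11 for 4 (-0.30). For all accessions the median deviation of these animals lay between -0.010 and 0.049. Without TMM factors, animals 1, 2 and 8 stayed high and animals 4 and 7 low, while animal 11 was at -0.66 and animal 5 at -0.072. The median of all accessions moved likewise, to -0.37 in animal 11 and 0.32 in animal 5, so that the median of the members lay below that of all accessions in both animals under either scaling (in animal 5 with TMM the members were at -0.39). The labels give no groups among the animals, so they were not compared by a test.

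The width of the spread separated the genes. RPS28, RPS19, RPS6 and RPSA had the narrowest spread with TopHat2 (SD of 0.26, 0.29, 0.29 and 0.29), below the median of all accessions. At the wide end, 9 members (RPS15A, RPS21, RPS3A, RPS20, RPS7, RPS23, RPS27, RPS12 and RPS25) had an SD above 0.6, a limit chosen after their values were seen. RPS15A had the widest, 1.03, with 26 counts in animals 4 and 5 and 265 in animal 2. RPS3A followed the same animals, with 412 counts in animal 4, 470 in animal 5 and 3992 in animal 2, which is well above the next highest (animal 3, 1820). RPS7 (NM_001011; eS7) had 331 counts in animal 4 and 3574 in animal 2. All 9 were above their own mean in animals 1, 2, 3, 8 and 10 and below it in animals 4, 5, 7 and 9, with median deviations from -1.33 in animal 4 and -1.19 in animal 5 to 1.28 in animal 2. The other 17 members shared the high animals 1 and 2 (17 of 17 above the mean) and the low animal 4 (none), but in animal 5 were above the mean for 8 of 17 (median deviation -0.052). Without animal 5 the SD of RPS15A was 0.87, of RPS21 0.84 and of RPS12 0.61, still above that of most other members, and the remaining 6 of the 9 lay between 0.58 (RPS25) and 0.89 (RPS3A). The 9 genes are from both the head and the body. They were also among the lower-counted members, with TopHat2 means from 103 (RPS15A) to 4350 (RPS12). Of the other members, RPSA (664) and RPS29 (1319) lay in that range, and the rest had means of 8777 (RPS28) or more. The part of the count level in the spread was not tested. RNA quality and cell counts of the animals were not part of the tables, so their part was not tested either.

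**Figure D4:**
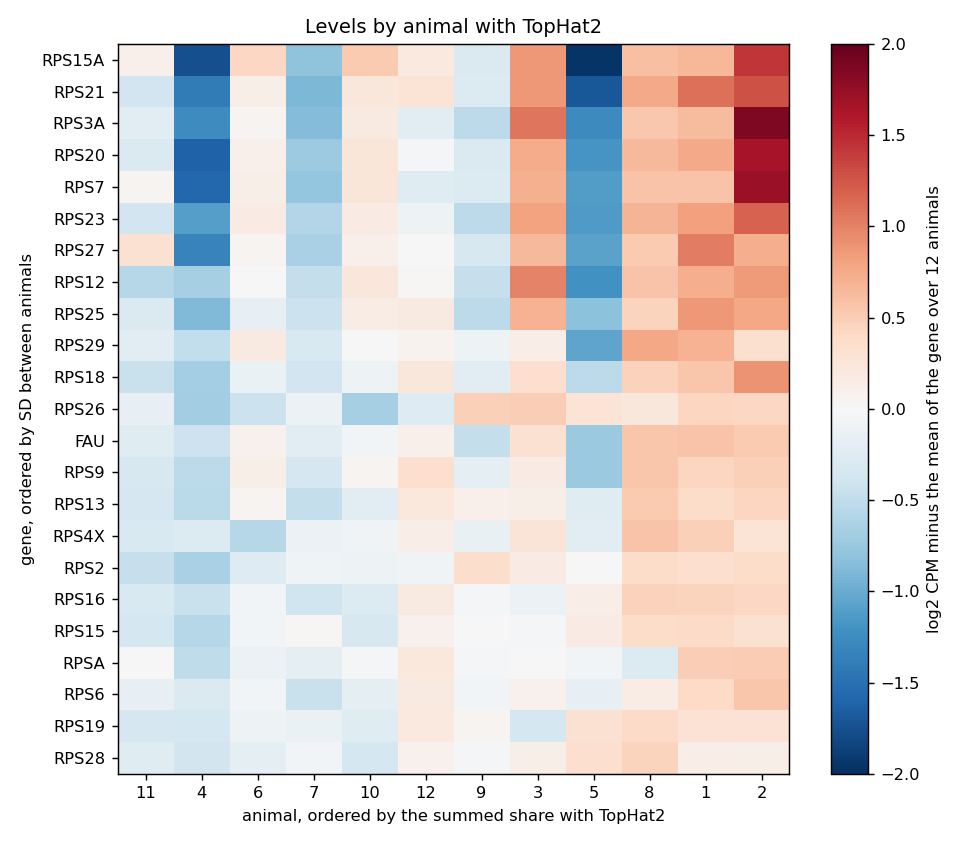
Level of 23 of the 26 members in 12 animals with TopHat2, as log2 CPM minus the mean of the gene (colour scale from -2 to 2), with genes ordered by their SD and animals by their summed share. Animals 1, 2 and 8 are red and animal 4 is blue for nearly all genes, and the genes at the top, from RPS15A (SD of 1.03) to RPS25 (0.62), are also blue in animal 5 and red in animal 3.

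For some members the mapping method changed not only the level but also the order of the animals. RPS27 (NM_001030), the zinc-finger protein eS27, had an SD of 0.75, 0.73 and 0.73 with Bowtie2, Stampy and TopHat2 and of 0.38, 0.35 and 0.35 with Bowtie2-G, Stampy-G and GSNAP. In raw counts of RPS27, animals 4 and 5 were the lowest pair with TopHat2 (1545 and 2131), while animal 5 was second highest with GSNAP (367). As log2 CPM minus the mean of the gene, animal 5 was at -1.07 with TopHat2. With GSNAP it was at 0.13, below animals 1, 2 and 8. RPS7 likewise had SDs of 0.89 with TopHat2, 0.73 with GSNAP and 0.35 with Stampy-G. RPS2 went the other way, with an SD of 0.34 with TopHat2 and of 0.85 with GSNAP. Its GSNAP counts were 110, 73, 77, 77 and 73 in animals 2, 4, 6, 11 and 12 and between 217 and 417 in the others, although animal 2 had the highest count of all with TopHat2 (18724). RPS28 with Stampy-G was highest in animal 11 (317 counts), the animal with its lowest raw count with TopHat2 (6376). As log2 CPM minus the mean of the gene, animal 4 was lowest with TopHat2 (-0.37, against -0.24 in animal 11). Without animal 11 the SD of RPS28 with Stampy-G fell from 0.54 to 0.35. The order of the animals was not scored for the other members. The log2 ratio of TopHat2 to Bowtie2-G had an SD over animals of 0.029 for RPS19 and 0.030 for FAU, with a median of 0.10 over the members, against SDs of 0.29 and 0.43 for the levels of both genes between animals. For RPS12 the SD of this ratio was 0.34.

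**Figure D5:**
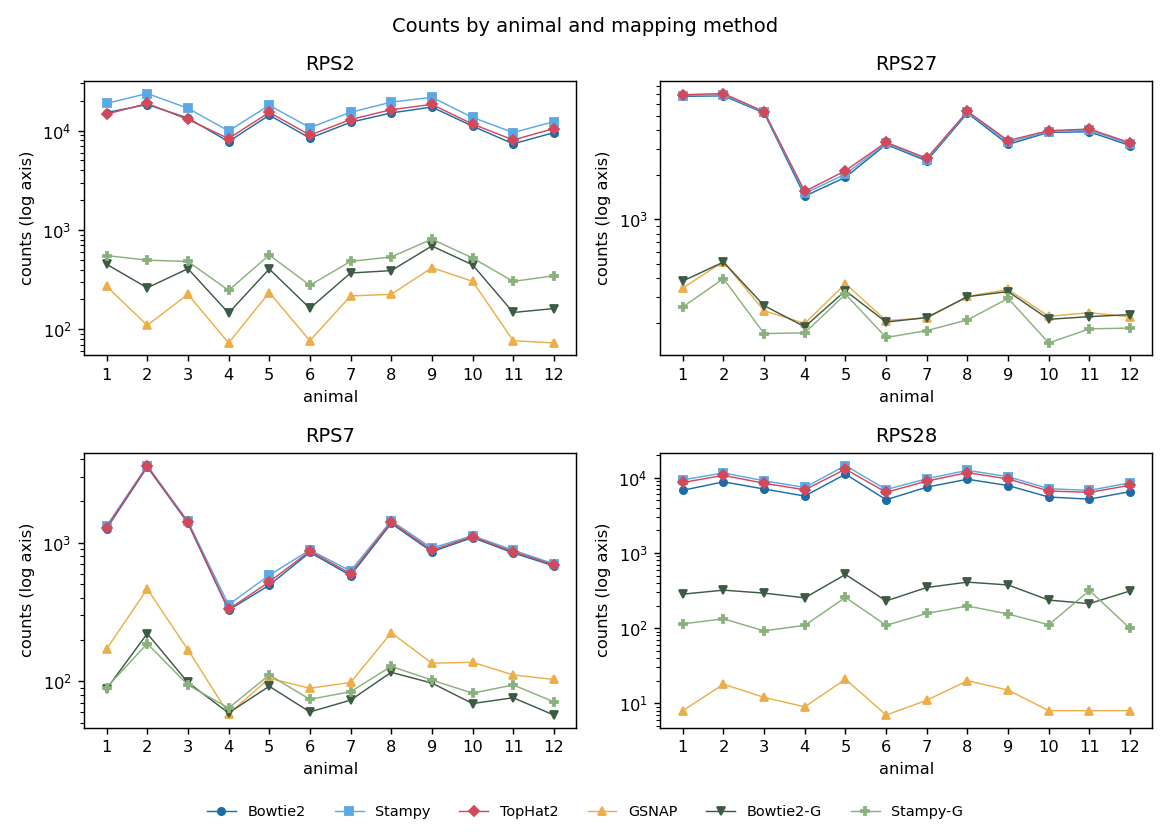
Counts (log axis) of RPS2, RPS27, RPS7 and RPS28 in 12 animals, with 1 line for each mapping method. Bowtie2, Stampy and TopHat2 follow each other closely, while RPS2 with GSNAP drops to 73 counts in animals 4 and 12 and 110 in animal 2, and RPS28 with Stampy-G peaks at 317 in animal 11.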

How the data were processed

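The data are raw read counts for each transcript, whole numbers as deposited by the authors with no normalization, in 6 tables with 12 columns each, and columns were matched to animals by number. From the study's methods and the notes of the submitters, paired reads were trimmed by the authors (Trimmomatic 0.25) and mapped to hg19 by GSNAP, Stampy, Bowtie2 2.0.6 and TopHat2 2.0.7, each with its defaults, and primary alignments were counted with HTSeq 0.5.4 in the intersection-nonempty mode. The strand setting is not given in the sources used here, so reads of antisense partners cannot be told apart. Every column was used (0 left out).

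The members and lists were chosen with earlier results of these data known. Rows of one accession were summed. In 8 comparisons of methods, counts were tested with edgeR 4.0.16 (R 4.3.3; glmQLFit, then glmQLFTest), taking the animal as block and the mean of both column totals of an animal as the library size of both, after filterByExpr, and calls were made at an adjusted p under 0.05 (Benjamini-Hochberg over all accessions tested). The block follows from the design, and every animal's column was closest to its own column in the other table (12 of 12 in each comparison). Standard errors were derived from the F statistic. The p-value is also limited by counting error, so for a small difference it can be larger than the standard error implies. No columns of different animals were alike within sampling noise (the smallest chi-square for each degree of freedom was 31.0 with TopHat2). Intervals and floors (3 counts for a count of 0) cover counting error only. The scripts were tested on simulated data. In each comparison the text names the 3 members with the largest difference in each direction that was the same in 12 of 12 animals, those lost with 1 method, those that failed the filter, and FAU and RPS27A; 4 members are not reported here by name but enter the sums, counts and medians, and other members are named as the ends of ranges or were chosen after their values were seen. Lists of large subunit genes and other symbols were not used, since no source here pairs accessions with symbols, and no transcript lengths or sequences were used, so levels were not compared between genes. Alternatives were other scalings, DESeq2 1.42.0, no filter, no block, a 2-fold limit, unsummed rows, other denominators and prior counts, and, added after seeing the data, leaving out animal 5 or animal 11.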

Additional observations from a re-analysis of the deposited data

How the results depend on the processing

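Scaling mattered most, as a library size shared by both columns gives differences in reads assigned and own totals give differences in the share of counts. In Bowtie2 minus Bowtie2-G, 1 member was lower with TMM on own totals, own totals alone and DESeq2's size factors. Members higher and lower were 6 and 15 with TMM on own totals, 8 and 15 with own totals and 6 and 15 with DESeq2's size factors in Stampy-G minus Bowtie2-G, and 2 and 24, 4 and 20, and 2 and 24 in Stampy minus Bowtie2. In Bowtie2 minus TopHat2, 4 were higher with DESeq2's size factors. With these 3 scalings in turn, FAU reversed to 0.20, 0.20 and 0.20 (log2) in GSNAP minus Bowtie2-G, to -0.25, -0.19 and -0.26 in Stampy-G minus Bowtie2-G and to -0.24, -0.10 and -0.26 in Stampy minus Bowtie2, where RPS28 reversed to -0.023 with TMM and -0.046 with DESeq2's size factors. These moves follow from the scaling itself.

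With no replicate block, which ignores that both columns are the same animal, members higher and lower were 25 and 0 in Bowtie2 minus Bowtie2-G, 8 and 5 in GSNAP minus Bowtie2-G, 7 and 4 in Stampy-G minus Bowtie2-G, 3 and 0 in Stampy minus Bowtie2, and 1 and 3 in Bowtie2 minus TopHat2. With at least a 2-fold difference they were 4 and 4 in GSNAP minus Bowtie2-G, 3 and 2 in Stampy-G minus Bowtie2-G, 2 higher in Stampy minus Bowtie2, and 1 and 2 in Bowtie2 minus TopHat2. DESeq2 at the same library sizes, no filter, unsummed rows and leaving out animal 5 moved no count of called members by more than 1.5 times. The mean shares and the median SDs between animals moved by less than 1 SD under their alternatives. Low counts limit what can be said of RPSA, RPS28, RPS26 and RPS29 with GSNAP and of RPSA with Bowtie2-G and Stampy-G. The same holds for the 6 members under 5 counts in every column. Why these counts were low was not tested.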
